A study of Mus musculus with 12 samples.

Results

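The neuronal activity immediate early genes examined here were 10 of the 19775 genes in the deposited table of whole-brain normalized counts: Fos, Fosb, Junb, Egr1, Egr2, Arc, Npas4, Nr4a1, Ier2 and Dusp1. They were selected by symbol, with earlier results of these data known, though no measured value entered the rule. The question asked of them was how far their levels moved together between mice of 1 genotype. All 10 had a row, and all 10 passed the filter of a mean of at least 10 normalized counts. The samples were 12 whole brains of male C57BL/6N mice at about postnatal day 120, 4 each of wild-type (WT), heterozygous (HT) and homozygous (HM) genotype for a Slc6a20a allele that lacks exon 3. SLC6A20A is a proline and glycine transporter. The mice came from crosses of heterozygous parents, so all 3 genotypes shared their strain, sex, age and housing and carried no transgene or drug treatment. Each library was 1 brain, and the sources used here give neither the hour at which a brain was taken nor what the mouse did before it. Whether the mice of a genotype came from separate litters is also not given in the sources used here, so p-values measure the spread between these mice.

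Immediate early genes are transcribed within minutes of a stimulus and need no new protein for it. In neurons, calcium that enters through NMDA receptors and voltage-gated channels activates kinases that act on transcription factors already bound near these genes, among them CREB, which binds the cyclic AMP response element (CRE), SRF with its ELK partners, which bind the CArG box, and MEF2. The products feed a later wave of transcription and alter synapses, and Fos, Arc and Npas4 are widely used to mark neurons that were recently active.

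The members differ in what they encode. FOS, FOSB and JUNB are leucine zipper proteins that pair to form the AP-1 transcription factor, EGR1 and EGR2 are zinc finger factors, NPAS4 is a basic helix-loop-helix PAS factor and NR4A1 is an orphan nuclear receptor. ARC works at the synapse, where it takes part in the removal of AMPA receptors. DUSP1 is a phosphatase that switches off MAP kinases, and IER2 is a small nuclear protein. In GENCODE M21 (GRCm38), Fos lay on chromosome 12 (85473890 to 85477273, plus strand), Fosb on chromosome 7 (19302696 to 19310051, minus strand), Junb on chromosome 8 (84974484 to 84978718, minus strand), and Egr2 on chromosome 10 (67535475 to 67542188, plus strand). Arc and Nr4a1 were both on chromosome 15, at 74669083 to 74672570 on the minus strand and at 101254269 to 101274795 on the plus strand. Npas4 was on chromosome 19 (4984355 to 4990316, minus strand), Ier2 on chromosome 8 (84661331 to 84662852, minus strand) and Dusp1 on chromosome 17 (26505590 to 26562128, minus strand). Of the 10 genes, 8 overlapped no other annotated gene. Junb overlapped Prdx2, and Dusp1, through its longest annotated transcript, overlapped Ergic1, in both cases on the opposite strand, and the library kit named in the labels does not mark strand.

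The bases just before the transcription start are shown for 7 members because the core of the CRE, the element through which CREB acts, was the one motif of those searched that all of them held. RefSeq (GRCm38.p6) gave such windows for Fos, Fosb, Junb, Egr2, Npas4, Nr4a1 and Dusp1, and none was used here for Egr1, Arc and Ier2. Each line gives the 250 bases before the start, 5′ to 3′ on the gene's own strand, and capitals mark CRE cores (TGACG, or CGTCA on the other strand), the full CRE (TGACGTCA, in which a core of each strand overlaps) and the CArG box. Egr2 had 5 annotated starts, of which the first of those with CRE cores and a CArG box is shown.
Fos, chr12:85473640-85473889, plus strand: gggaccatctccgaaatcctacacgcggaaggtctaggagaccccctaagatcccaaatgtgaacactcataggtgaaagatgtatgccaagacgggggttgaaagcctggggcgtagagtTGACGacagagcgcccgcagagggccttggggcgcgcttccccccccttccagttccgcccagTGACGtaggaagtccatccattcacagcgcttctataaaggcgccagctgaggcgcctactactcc
Junb, chr8:84978749-84978998, minus strand: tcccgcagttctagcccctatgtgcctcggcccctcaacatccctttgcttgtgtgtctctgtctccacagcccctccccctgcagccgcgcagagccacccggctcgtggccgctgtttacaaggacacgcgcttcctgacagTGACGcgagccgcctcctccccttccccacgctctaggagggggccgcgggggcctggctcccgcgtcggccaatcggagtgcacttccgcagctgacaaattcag
Egr2, chr10:67537619-67537868, plus strand: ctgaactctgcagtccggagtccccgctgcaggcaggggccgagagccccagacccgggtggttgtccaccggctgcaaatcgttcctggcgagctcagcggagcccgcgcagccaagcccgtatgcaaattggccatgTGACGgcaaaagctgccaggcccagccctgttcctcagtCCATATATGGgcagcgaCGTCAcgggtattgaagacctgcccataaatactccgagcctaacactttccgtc
Npas4, chr19:4989972-4990221, minus strand: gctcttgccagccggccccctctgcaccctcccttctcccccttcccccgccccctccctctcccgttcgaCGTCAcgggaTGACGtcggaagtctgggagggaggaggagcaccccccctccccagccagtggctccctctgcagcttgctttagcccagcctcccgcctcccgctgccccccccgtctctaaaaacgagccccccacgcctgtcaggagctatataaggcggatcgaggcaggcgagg
Nr4a1, chr15:101266596-101266845, plus strand: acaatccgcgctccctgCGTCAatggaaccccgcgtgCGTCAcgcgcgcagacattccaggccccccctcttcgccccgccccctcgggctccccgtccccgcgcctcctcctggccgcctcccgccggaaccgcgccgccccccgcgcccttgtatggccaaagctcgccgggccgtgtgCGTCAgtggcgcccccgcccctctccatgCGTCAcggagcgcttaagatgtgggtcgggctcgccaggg
Fosb, chr7:19310046-19310295, minus strand: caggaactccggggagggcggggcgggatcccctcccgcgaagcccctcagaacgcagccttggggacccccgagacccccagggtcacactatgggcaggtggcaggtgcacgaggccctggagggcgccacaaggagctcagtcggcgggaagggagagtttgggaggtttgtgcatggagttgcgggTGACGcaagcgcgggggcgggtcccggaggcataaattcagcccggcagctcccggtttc
Dusp1, chr17:26508473-26508722, minus strand: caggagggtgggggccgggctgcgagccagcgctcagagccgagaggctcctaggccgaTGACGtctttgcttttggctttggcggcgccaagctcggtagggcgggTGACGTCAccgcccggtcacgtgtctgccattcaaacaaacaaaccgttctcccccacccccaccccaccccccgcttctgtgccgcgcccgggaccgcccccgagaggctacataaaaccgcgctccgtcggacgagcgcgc

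Over all their annotated starts, the 7 members had 11 such windows, of which 9 held at least 1 CRE core, with 1 or more for each member, against 17.8% of the 32851 windows of 27025 genes in the same set. Fosb and Junb held 1, whose first bases lay at -60 and -106 from the start. Fos held 2, at -129 and -66, Npas4 2, at -179 and -169, and the shown window of Egr2 2, at -111 and -55, while 2 or more occurred in 3.90% of all windows. Nr4a1 held 4, at -233, -213, -69 and -40. The full CRE was found in 1 member, Dusp1, at -143, where 1.55% of all windows held it, and a further core of Dusp1 lay at -191. The CArG box was found in 1 member, Egr2, at -72, and in 1.47% of all windows. A match describes these letters only, and no binding was measured in these mice.

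Levels of the 10 genes differed widely. Divided by the length of the longest coding transcript, the mean level in WT mice was highest for Arc, at 1391 normalized counts per kb, followed by Egr1 at 989, Nr4a1 at 829, Junb at 711, Dusp1 at 456, Fos at 214, Npas4 at 146, Fosb at 121, Ier2 at 118 and Egr2 at 36.0. Fosb and Ier2 stood closer together than the SD over the 4 WT mice of either gene, 16.8 and 10.8 per kb, and every other pair of neighbours in this order was farther apart than the larger of their SDs. In whole brain, a low level can come from few cells with much RNA or many cells with little, and the number of cells that express a gene cannot be told apart from the RNA per cell.

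Among the AP-1 genes, Fos was measured at 439.7, 406, 487 and 471 normalized counts in WT replicates 1 to 4, at 312, 426, 538 and 581 in HT and at 503, 877, 403 and 451 in HM. Fos was thus narrow in WT, while the lowest HT mouse and the highest HM mouse were 2.81-fold apart. Junb was measured at 1346, 1187, 1327 and 1282 in WT, 1127, 1341, 1439.5 and 1441 in HT and 1350.2, 1948, 1219.6 and 1341 in HM, with HT replicate 1 again lowest and HM replicate 2 again highest. Fosb was measured at 426, 385, 519 and 504 in WT, 480.4, 522, 553 and 475 in HT and 505, 540.1, 529 and 490.1 in HM. Fosb did not share the high value of HM replicate 2, and its highest mouse was HT replicate 3, 1.44-fold above its lowest.

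For the zinc finger gene Egr2, the 4 WT mice had 61.0, 133, 105 and 128 normalized counts, the HT mice 66.9, 109, 138 and 129 and the HM mice 133, 217, 62.7 and 85.0. A low mouse was thus present in every genotype, and the highest and lowest of the 12 were 3.56-fold apart, the widest range among the 10 genes. Egr1 had 4314, 4281, 4878 and 4263 normalized counts in WT, 4269, 4031, 4808 and 5291 in HT and 4704, 6751, 4785 and 4301 in HM. HM replicate 2 stood clear above the other 11 mice, whose Egr1 levels overlapped between the genotypes.

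Arc was listed at 2842, 4709, 4867 and 4585 normalized counts in WT, 2809, 4299.7, 4330.3 and 5093 in HT and 4684, 7296, 2823 and 4101 in HM. The lowest mice of the 3 genotypes, WT replicate 1, HT replicate 1 and HM replicate 3, lay close together. Npas4, whose transcription depends more strictly on neuronal calcium entry than that of most immediate early genes, was listed at 428, 527, 556 and 611 in WT, 323, 465, 618 and 468 in HT and 601, 1015, 467 and 498 in HM. Nr4a1 was listed at 1759, 2107, 2378 and 2221 in WT, 1855, 2078, 2386 and 2405 in HT and 2381, 3168, 2105 and 2172 in HM. WT replicate 1 and HT replicate 1 were the lowest of their genotypes in Arc, Npas4, Nr4a1 and Egr2 alike.

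Dusp1 had 819, 1052, 919 and 843 normalized counts in WT, 722, 911, 922 and 948 in HT and 900.1, 1284, 827 and 946 in HM. Ier2 had 194, 178, 157 and 189 in WT, 169.6, 196, 172 and 184 in HT and 215, 269, 181 and 176 in HM. In both genes the genotypes overlapped, and only HM replicate 2 stood clear above the other 11 mice.

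**Figure D1:**
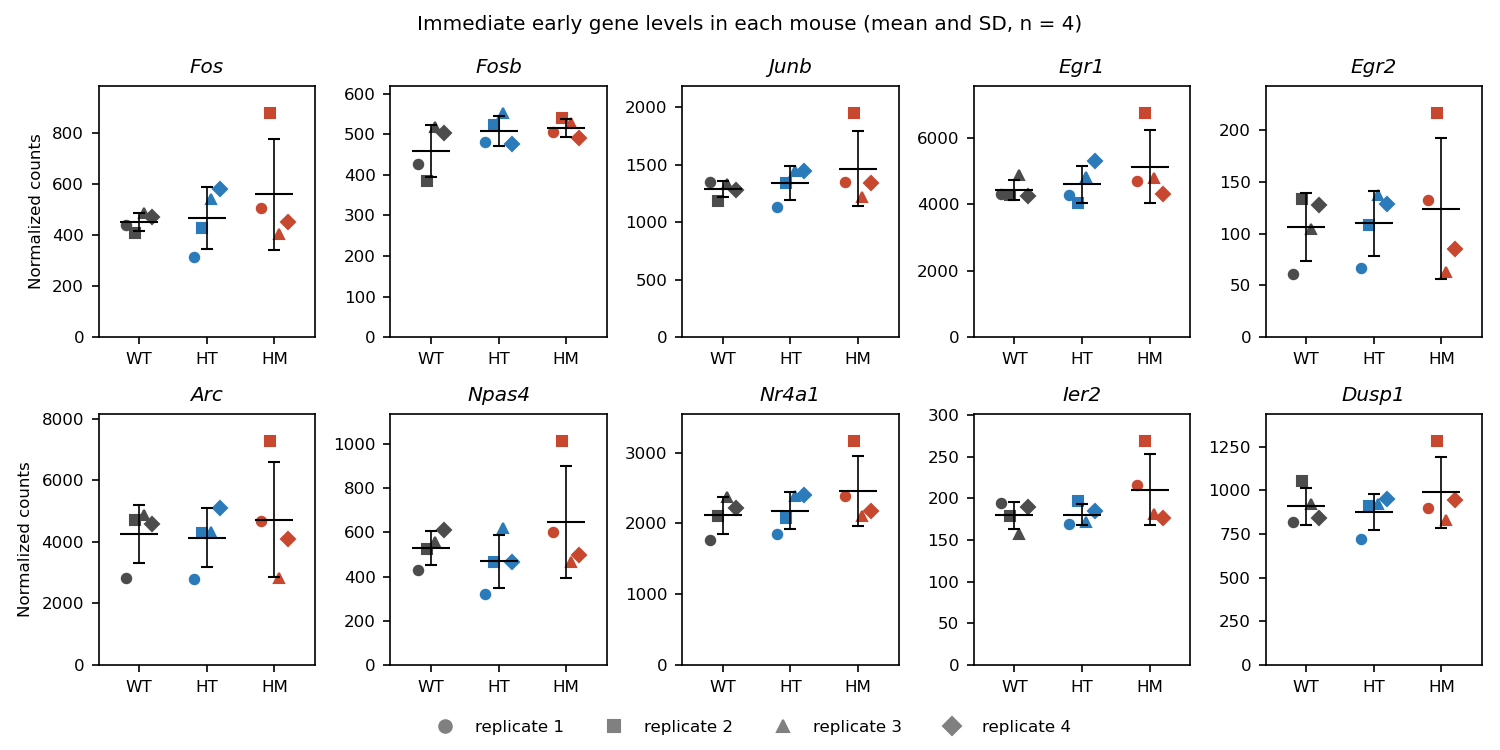
Normalized counts (vertical axes, linear, from 0) of the 10 immediate early genes in each mouse by genotype; marker shape gives the replicate, horizontal lines the mean and bars the SD over 4 mice. HM replicate 2 (red square) was the highest of the 12 mice in 9 of the 10 genes, Fosb being the exception, and the genotypes overlapped in every gene.

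HM replicate 2 was therefore the highest of all 12 mice in 9 of 10 genes and the highest of its genotype in 10 of 10. HT replicate 1 was the lowest of the 12 in 5 genes and the lowest of its genotype in 8, and HM replicate 3 was the lowest HM mouse in 7. After the genotype mean of each gene was removed on the log2(normalized count + 1) scale, the mean over the 10 genes was 0.52 in HM replicate 2, against -0.01, -0.32 and -0.19 in HM replicates 1, 3 and 4. In HT, the same mean was -0.32, 0.01, 0.16 and 0.15 in replicates 1 to 4, with replicate 1 low in all 10 genes. In WT it was -0.20, 0.02, 0.08 and 0.09, a narrower range than in the mutants. Since HM replicate 2 carried so much of the spread, the main correlations and the HM estimates that turn are also given without it.

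**Figure D2:**
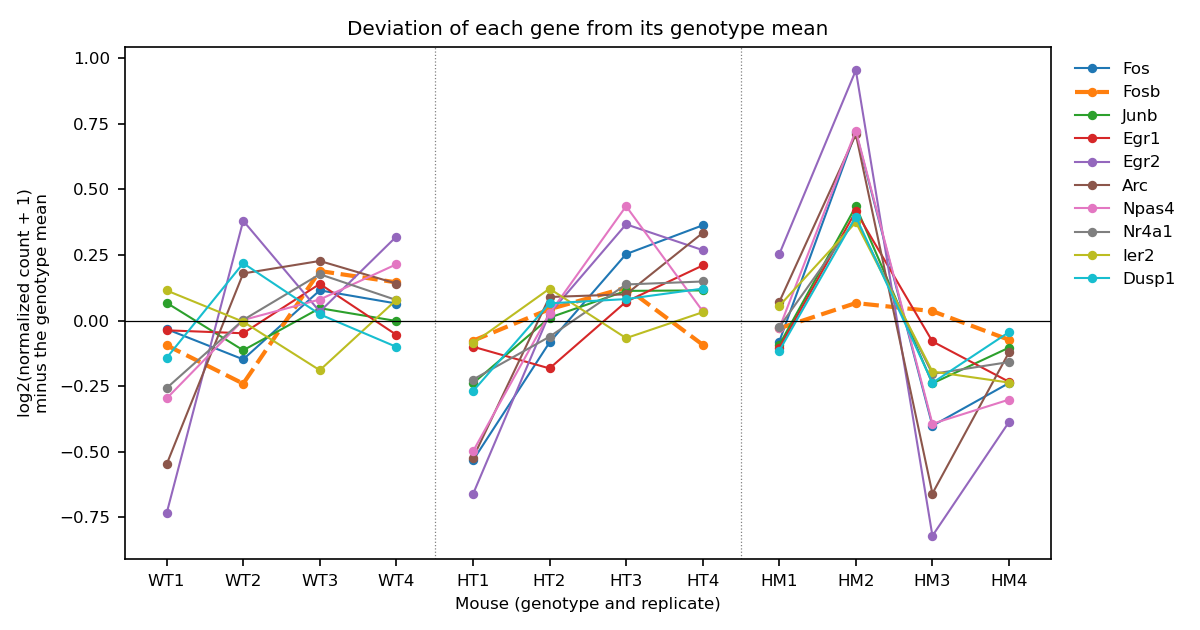
Deviation of each gene from the mean of its genotype (vertical axis, log2(normalized count + 1)) in the 12 mice (horizontal axis); lines only join the points of 1 gene within a genotype, and Fosb is dashed. All 10 genes lie below 0 in HT replicate 1 and HM replicate 4, all but Fosb in HM replicate 3, and all 10 above 0 in HM replicate 2, where 9 of them lie between 0.37 and 0.95 and Fosb at 0.07.

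The spread of the members within genotypes was large for their level. The residual SD, that is the SD over the 12 mice around the genotype means on the log2 scale, was 0.60 for Egr2, 0.44 for Arc, 0.39 for Npas4, 0.38 for Fos, 0.21 for Nr4a1 and Dusp1, 0.20 for Junb and Egr1, 0.19 for Ier2 and 0.14 for Fosb. Relative to the SD that limma's trend gave for genes of the same level, Arc stood 7.01-fold higher, and 99.9% of the 18006 genes tested had a lower ratio. The ratio was 3.59 for Npas4, 3.34 for Fos, 3.23 for Egr1, 3.03 for Nr4a1, 2.93 for Egr2, 2.53 for Junb and 2.37 for Dusp1, each above at least 97.9% of genes. Fosb, with a ratio of 1.23 above 72.0% of genes, and Ier2, with 1.16 above 67.1%, spread little more than other genes of their level, where the median ratio over all genes was 0.997. The median SD over the 10 genes was 0.21 with all mice and 0.16 without HM replicate 2. These are descriptions of the 12 mice with no test attached.

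**Figure D3:**
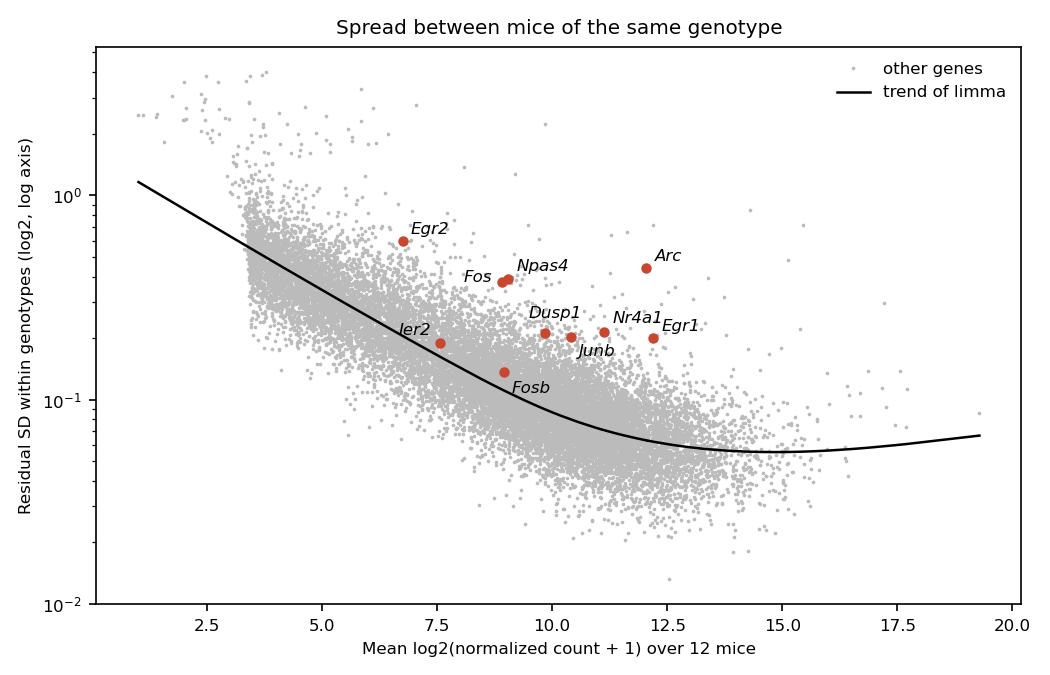
Residual SD within genotypes (vertical axis, log2 units on a log axis) against mean log2(normalized count + 1) over the 12 mice (horizontal axis) for all 18006 genes (grey), the limma trend (black line) and the 10 members (red). All 10 members lie above the trend, Arc by 7.01-fold, and Fosb and Ier2 lie closest to it.

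Most members were high in the same mice and low in the same mice of a genotype. Over the 45 pairs of members, Pearson's r of the genotype-centred levels had a mean of 0.665 and a median of 0.745, and 44 pairs were positive. The mean of Spearman's rho was 0.587. All these correlations share the same 12 libraries and their scaling, and over all pairs of the 18006 genes the mean r was 8.86e-06, with 2.36% of pairs at or above 0.665. An r of at least 0.8 was found in 19 pairs. In an exact permutation test of each pair over all 13824 reorderings of mice within genotypes, 24 of the 45 pairs had a two-sided p under 0.05 before any adjustment. The shares of all gene pairs that pass this test or reach an r of 0.8 were not computed. Without HM replicate 2 the mean r was 0.442, a level that 12.8% of all gene pairs reached, 41 pairs were positive and 6 had an r of at least 0.8.

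Pairs were then called with limma, by regressing every gene on genotype and the level of 1 member, adjusting by the Benjamini-Hochberg (BH) method over all 18005 other genes and asking that the pair pass at 0.05 in both directions. With this rule, 8 of the 45 pairs were called. Of all genes tested, 0.0167% were called on the level of Fos, 0.00555% on Junb, 0.0389% on Egr2, 0.0722% on Arc, 0.0222% on Npas4 and 0.0278% on Nr4a1. Egr2, Arc, Npas4 and Nr4a1 formed a closed group, in which all 6 possible pairs were called, and Fos was called with Junb and with Npas4. No call was made on Fosb, Egr1, Ier2 and Dusp1, where 0% of genes passed. Before adjustment, p under 0.05 was found for 7 of the 9 other members on the level of Egr1, Ier2 and Dusp1 alike, where 5.21%, 5.13% and 7.03% of all genes passed, and for 0 of 9 on the level of Fosb, where 5.32% of all genes passed. Leaving out HM replicate 2, the counts for Egr1, Ier2 and Dusp1 were 2, 0 and 5 of 9, where 3.87%, 4.54% and 7.81% of all genes passed.

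Egr2 and Arc, a transcription factor and a synaptic protein, gave the closest of the called pairs by the larger of its adjusted p-values. Their r was 0.96 (exact permutation p = 0.00152) and Spearman's rho 0.85 (exact permutation p = 0.00456), with a larger adjusted p of 0.00491 (limma, BH). Per log2 unit of Egr2 in a mouse, Arc was 0.71 ± 0.06 (SE) log2 units higher. The r was 0.92 when the 2 mice with the most extreme Egr2 levels were dropped and 0.93 without HM replicate 2. Each genotype alone gave an r of 0.93 (WT), 0.93 (HT) and 0.98 (HM). The call held when each of 11 mice was left out and was lost without HM replicate 2.

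Fos and Junb, whose products pair in AP-1, had an r of 0.96 and a rho of 0.94 (exact permutation p = 0.00094 for each), with a larger adjusted p of 0.0077 (limma, BH). Junb was 0.52 ± 0.06 (SE) log2 units higher per log2 unit of Fos. Each genotype alone gave an r of 0.71 (WT), 0.98 (HT) and 0.99 (HM), and r was 0.91 when the 2 mice with the most extreme Fos levels were dropped and 0.93 without HM replicate 2. The call was lost without HM replicate 2 or HM replicate 3 and held in the other 10 fits. With the third AP-1 gene, Fosb, the r was 0.34 for Fos and 0.33 for Junb. In WT, HT and HM alone, the r with Fosb was 0.99, 0.29 and 0.57 for Fos and 0.60, 0.44 and 0.54 for Junb. In WT mice Fosb thus followed Fos closely.

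Arc and Nr4a1 had an r of 0.93 (exact permutation p = 0.000289) and a rho of 0.94 (exact permutation p = 0.000145), with a larger adjusted p of 0.0139 (limma, BH). The r was between 0.90 and 0.94 in each genotype alone and 0.88 without HM replicate 2. The call held in 8 of 12 fits that each left out 1 mouse and was lost without WT replicate 1, HT replicate 1, HT replicate 4 or HM replicate 2.

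Npas4 was part of 4 called pairs, more than any other member, and all 4 genes called on its level were members. Its r was 0.92 with Nr4a1, 0.92 with Egr2, 0.90 with Fos and 0.87 with Arc, and rho was 0.88, 0.81, 0.89 and 0.83 in the same order (exact permutation p between 0.000506 and 0.00637). The larger adjusted p was 0.0352 for Nr4a1 and for Egr2, 0.0433 for Fos and 0.0467 for Arc (limma, BH). These calls lay near the threshold, and the calls with Nr4a1, Egr2, Fos and Arc held in 6, 5, 2 and 1 of the 12 fits that each left out 1 mouse. The eighth pair, Egr2 and Nr4a1, had an r of 0.91 and a rho of 0.81 (exact permutation p = 0.00174 and 0.00738) and a larger adjusted p of 0.0398 (limma, BH), and held in 3 of 12.

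Across the 8 called pairs, r ranged from 0.87 to 0.96, and without HM replicate 2 from 0.77 to 0.93, yet 0 pairs were called among the 11 other mice. The count also fell to 2 without HT replicate 1 or HM replicate 3, to 3 without WT replicate 4, HT replicate 2 or HM replicate 4 and to 5 without WT replicate 3 or HT replicate 4. With a variance prior that has no trend, 1 pair was called, and 0 pairs passed when replicate numbers were fitted as a block and 0 when animal number starts were.

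**Figure D4:**
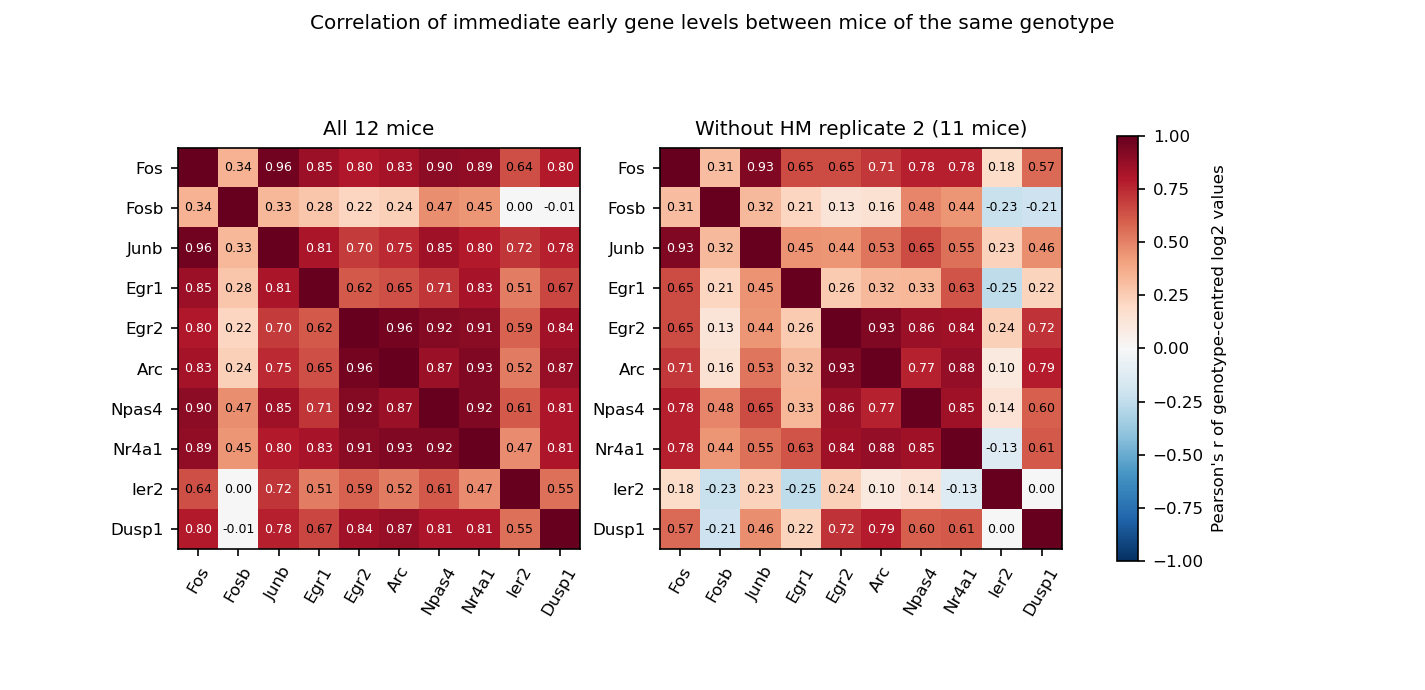
Pearson's r between each pair of immediate early genes over genotype-centred log2(normalized count + 1), for all 12 mice (left) and without HM replicate 2 (right); the colour scale runs from -1 (blue) to 1 (red) and each cell prints its r. Egr2, Arc, Npas4 and Nr4a1 remain dark on the right, with r from 0.77 to 0.93. The row of Ier2 turns pale there, that of Egr1 does so in part, and that of Fosb is mostly pale on both sides.

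The remaining members followed the others less closely. Fosb had a mean r of 0.257 with the other 9, from -0.01 with Dusp1 to 0.47 with Npas4. The 36 pairs without Fosb had a mean r of 0.767 and a lowest r of 0.469, which without HM replicate 2 was -0.25, for Egr1 and Ier2. For Ier2 the mean r with the other members was 0.513 with all mice and 0.0311 without HM replicate 2, and for Egr1 it was 0.658 and 0.315. Dusp1 had a mean r of 0.678, or 0.419 without HM replicate 2, and its highest r was 0.87, with Arc. The difference between any 2 of these correlations was not tested.

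The closeness of the members was not the same in every genotype. The mean r of the 45 pairs was 0.154 over the 4 WT mice, with 27 pairs positive, 0.637 over the HT mice, with 43 positive, and 0.857 over the HM mice, with 45 positive. The HM value includes HM replicate 2, the highest HM mouse in all 10 genes, with a mean deviation of 0.52. A single far mouse can raise the r of every pair, and the HM value was not computed without it. The mean deviations of the mice also spread least in WT and most in HM, and with 4 mice a genotype these values were not tested against each other. In WT mice the closed group of Egr2, Arc, Npas4 and Nr4a1 kept r between 0.77 and 0.94, while Junb and Egr2 had an r of -0.74.

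The deposited column names carry animal numbers, whose meaning the labels do not give. HM replicates 1 and 2 had numbers that start with 271, WT replicate 1 and HM replicate 3 with 274, WT replicate 2, HT replicates 1 and 2 and HM replicate 4 with 276, and the other 4 mice with 278. The 4 mice of the last start all lay above their genotype means, with mean deviations over the 10 genes from 0.08 to 0.16 on the log2 scale. Both mice of the start 274 lay below, at -0.20 and -0.32, while the start 271 held one mouse near its mean (-0.01) and one far above it (0.52) and the 4 mice of the start 276 ran from -0.32 to 0.02. With the mean of each start removed as well, the mean r of the 45 pairs was 0.606, and 0 pairs were called. What mice of 1 start shared is not given in the labels, and its part in the covariation was not tested.

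Genes called on the level of a member were 33 in all over the 10 fits, of which 17 were members. The total was 3, of which 1 was a member, without HM replicate 2, between 9 and 30 when any other mouse was left out, 5 with a prior that has no trend, 25, with 3 members, with the replicate block and 2 with the block for the start of the animal number. Quantile normalization gave 22 calls, of which 15 were members. The total was 9, with 8 members, without WT replicate 4, 14, with 12 members, without HT replicate 4, and 30, with 13 members, without HT replicate 3. Calls on genes other than members were thus often lost. In the main fits, the other 16 calls fell on 11 genes, which are named after this result was seen. Hspa5, an endoplasmic reticulum chaperone, was called on Fos with a slope of 0.42 ± 0.06 (SE; adjusted p = 0.0210, limma, BH). A330023F24Rik, a long noncoding transcript, was called on Egr2, Arc and Nr4a1, with adjusted p of 0.0164, 0.0302 and 0.0432 (limma, BH). Cep250, Gm44832 and Hps4 were each called on both Egr2 and Arc, Gm43980, Fam135b, Dusp11, Igsf9b and Rbm28 on Arc, all with positive slopes, and Nudt18 on Arc with a slope of -0.26 ± 0.04 (SE; adjusted p = 0.0458, limma, BH).

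To find the genes whose pattern was most like that of the members, each member was divided by its own SD and the 10 were averaged in each mouse. Over the 12 mice with genotype means removed, the 10 other genes with the highest r to this mean were Gm29514 (0.96), Frem2 (0.92), Ccdc117 (0.91), Usp31 (0.90), Clpb (0.90), A330023F24Rik (0.90), Gm43062 (0.89), Cep250 (0.89), Upf1 (0.89) and Edem2 (0.89). Without HM replicate 2 they kept r between 0.77 (Edem2) and 0.94 (Ccdc117). The 3 genes with the lowest r were Pskh1 (-0.95), Slc9a9 (-0.93) and Uvrag (-0.93). None of the most similar genes belonged to the lists of rapid response or later activity-dependent genes, and Gm29514 is annotated as antisense, for which the library kit leaves the strand of origin unknown. Being the extremes of 17996 genes, they carry no test.

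The same measure was taken for single genes known to respond or signal with the members, as a description with no test. Means of whole lists were set against the plain mean of the 10 members' deviations, in which no gene is divided by its SD. Of 29 other rapid response genes, 13, or 44.8%, had an r of at least 0.5 to the mean of the members and 0 had an r of -0.5 or lower, against 9.63% and 9.66% of 17996 non-member genes. When HM replicate 2 was left out these were 6 of 29, or 20.7%, and 0, against 11.4% and 11.6%. The members of this list with the highest r, named after their values were seen, were Sik1 (0.85), a kinase that restrains CREB coactivators, Fosl2 (0.82), an AP-1 partner, Dusp6 (0.80), a MAP kinase phosphatase, Ier5l (0.74), Trib1 (0.73) and Egr3 (0.71), and Jun had an r of 0.61. Of these 7 genes, all but Trib1 (0.47) kept an r of at least 0.5 without HM replicate 2. At the other end were Gadd45g (-0.40), Nr4a2 (-0.31, or 0.24 without HM replicate 2) and Arl4d (-0.12), and Jund, Maff, Csrnp1 and Zfp36 lay between -0.04 and 0.06. The mean of the 29 genes had an r of 0.89 and a rho of 0.94 to the mean of the members, and an r of 0.78 without HM replicate 2. Its deviations were smaller than those of the members, from -0.07 in HT replicate 1 to 0.12 in HM replicate 2 on the log2 scale.

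Of 20 later activity-dependent genes, which are induced more slowly and encode peptides, growth factors and synaptic proteins, 7 had an r of at least 0.5 and 1 an r of -0.5 or lower. Named after their values were seen, they were Homer1 (0.71), a postsynaptic scaffold, Pdyn (0.60), an opioid peptide precursor, Plk2 (0.60), Inhba (0.57), Nptx2 (0.56), Rgs2 (0.55) and Nefm (0.53), and on the negative side Cort (-0.68), a neuropeptide of interneurons. Bdnf, a growth factor that neuronal activity induces, had an r of -0.08. The mean of this list had an r of 0.10 and a rho of -0.10 to the mean of the members. The counts of 7 and 1 were 35% and 5% of the list, against 9.63% and 9.66% of non-member genes. Without HM replicate 2, 6 of the 20 had an r of at least 0.5 and 2 an r of -0.5 or lower, and the r of the list mean was 0.08. Plk2 (0.46), Rgs2 (0.49) and Nefm (0.37) then fell below 0.5, and Ptgs2 (0.69) and Pcsk1 (0.69) rose above it.

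Of all non-member genes, 9.63% had an r of at least 0.5 and 9.66% an r of -0.5 or lower. Without HM replicate 2 these shares were 11.4% and 11.6%. Among 33 genes of the pathway from the synapse to the promoter, 4, or 12.1%, had an r of at least 0.5. They were Rps6ka2 (0.67), Creb1 (0.63), Camk2a (0.54) and Hdac5 (0.53). An r of -0.5 or lower was found in 2, or 6.06%, so both shares were near those of all genes. These were Ppp3r1 (-0.63) and Ppp3ca (-0.57), subunits of the phosphatase calcineurin, whose r was -0.88 and -0.85 without HM replicate 2. Srf had an r of 0.19, or 0.50 without HM replicate 2. Without that mouse 11 of the 33 genes, or 33.3%, had an r of at least 0.5 and 3 an r of -0.5 or lower. Of 20 glucocorticoid-responsive genes, 1, or 5%, had an r of at least 0.5, Lcn2 (0.55, or 0.16 without HM replicate 2). An r of -0.5 or lower was found in 2, or 10%, Mt2 (-0.61) and Klf9 (-0.53). Without HM replicate 2 the counts were 0 and 0. Of 15 circadian clock genes, 2, or 13.3%, had an r of at least 0.5, Per2 (0.80, and 0.81 without HM replicate 2), which CREB also induces, and Npas2 (0.51), and 0 an r of -0.5 or lower. The list means had an r of 0.40 for the pathway, -0.20 for the glucocorticoid-responsive genes and 0.44 for the clock genes, and without HM replicate 2 of 0.66, -0.20 and 0.44.

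Markers of brain regions and cell types were set beside the members in the same way. Summed neuron markers lay between 178986 and 196943 normalized counts, while some regional markers were low, with means over the 12 mice of 13.0 for Pcp2 and 18.8 for Cbln3 of the cerebellum and 12.7 for Tbx21 and 39.1 for Eomes of the olfactory bulb. The mean of 7 olfactory bulb markers had an r of -0.67 to the mean of the members, and that of 6 cerebellar neuron markers -0.67, or -0.47 and -0.58 without HM replicate 2. Of the single markers, 3 of 7 and 1 of 6 had an r of -0.5 or lower, and 1 of 7 and 0 of 6 an r of at least 0.5. An r of -0.5 or lower was found in 9.66% of all non-member genes, or 11.6% without HM replicate 2. Within the olfactory bulb list the r ran from -0.84 (Doc2g) to 0.61 (Kctd12), with Th at -0.02, and the list mean ran from -0.40 in HM replicate 2 to 0.40 in WT replicate 1 on the log2 scale. Within the cerebellar list the r ran from -0.53 (Cbln3) to 0.42 (Neurod1, or 0.71 without HM replicate 2). The low Pcp2 and Cbln3 had the widest residual SDs of that list, 0.59 and 0.35, so its mean says little of cerebellar content. The mean of 5 oligodendrocyte markers had an r of -0.61, with 2 of 5 at -0.5 or lower, and -0.81, with 5 of 5, without HM replicate 2. The 2 pituitary genes measured, Pomc and Tshb, had an r of 0.61, or 0.50 without HM replicate 2, with summed levels between 78.1 and 171 normalized counts.

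The r of the other marker lists was nearer 0 with all mice, and for several of them the omission of HM replicate 2 turned its sign or raised it. The r of the list mean was -0.21 for 6 neuron markers, 0.07 for 8 markers of excitatory neurons of cortex and hippocampus and 0.30 for 7 striatal markers, and without HM replicate 2 it was -0.39, -0.14 and 0.62. For glia and vessels it was -0.18 for 5 astrocyte, 0.32 for 6 microglia and 0.26 for 7 endothelial and mural cell markers, or -0.013, 0.38 and 0.38 without HM replicate 2. For 5 blood, 5 choroid plexus and 5 meningeal markers it was 0.39, -0.27 and -0.26, or 0.31, 0.24 and 0.05 without HM replicate 2. By the measure for single genes, Slc6a20a itself had an r of -0.33, or 0.04 without HM replicate 2. The part of brain region, cell makeup or blood content in the covariation of the members was not tested.

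The genotypes were then compared, the targeted gene first. Slc6a20a was listed at 704, 584, 678 and 750.5 normalized counts in WT, 332, 366, 372 and 310.3 in HT and 69.0, 55.6, 76.5 and 57.1 in HM, with no overlap between genotypes. Its log2 fold change was -0.97 ± 0.09 (SE) in HT against WT and -3.38 ± 0.12 in HM against WT (adjusted p = 0.000938 and 1.75e-08, limma, BH). The labels of all 12 mice thus matched the gene.

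In HT against WT, none of the 10 members was called. An adjusted p under 0.05 was found in 0 of 10, where 0.00555% of 18004 genes passed, an unadjusted p under 0.05 in 0 of 10, where 6.42% passed, and levels that did not overlap in 0 of 10, where 3.73% did. The members' log2 fold changes ran from -0.20 ± 0.16 (SE) for Npas4 to 0.15 ± 0.10 for Fosb, with a median of 0.03 and adjusted p from 0.840 to 0.998 (limma, BH). For Fos the estimate was 0.0057, with a 95% interval from -0.33 to 0.34, and for Arc -0.04, from -0.43 to 0.34. Leaving out single mice turned the sign of 7 of the 10 estimates, that of Fos for example from 0.18 without HT replicate 1 to -0.12 without HT replicate 4. With 4 mice a genotype, true differences anywhere inside these intervals remain possible.

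In HM against WT, again 0 of 10 members passed at an adjusted p under 0.05, where 0.0111% of 18004 genes did, 0 of 10 at an unadjusted p under 0.05, where 6.99% did, and 0 of 10 did not overlap, where 4.22% did not. The mean was higher in HM for all 10 members, with log2 fold changes from 0.10 ± 0.23 (SE) for Arc to 0.24 ± 0.18 for Fos, a median of 0.19 and adjusted p from 0.734 to 0.959 (limma, BH). Since the members moved together between mice, the shared sign is not 10 separate results. Without HM replicate 2, the median was 0.011 and the estimate 0.0025 for Fos, 0.020 for Junb, -0.19 for Egr2, -0.14 for Arc, -0.019 for Npas4 and -0.023 for Dusp1, and without WT replicate 1 it was -0.12 for Egr2 and -0.081 for Arc. The smallest p was that of Fosb, the member least like the others, at 0.18 ± 0.09 (SE), with an adjusted p of 0.734 (limma, BH). With a block for the start of the animal number, the median of the members was 0.015, while Fosb stood at 0.33.

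In HM against HT, 0 of 10 members passed at an adjusted p under 0.05, where 0.00556% of 17986 genes did, 0 of 10 at an unadjusted p under 0.05, where 3.74% did, and 0 of 10 did not overlap, where 2.38% did not. Npas4 had the largest difference, 0.43 ± 0.23 (SE), with a 95% interval from -0.06 to 0.92, an unadjusted p of 0.0829 and an adjusted p of 1.000 (limma, BH). The other members lay between 0.03 (Fosb) and 0.24 (Fos), all with a higher mean in HM. Without HM replicate 2, the estimate was -0.25 for Egr2, -0.094 for Arc, -0.031 for Junb and -0.0033 for Fos, and without HT replicate 1 it was -0.16 for Egr2 and -0.032 for Arc. For Npas4 it was 0.19 without HM replicate 2, smaller in size than that of Egr2, and 0.57 without HT replicate 3. Comparisons with WT share the same 4 WT mice, and the last shares its mice with both, so the 3 sets of values are not independent.

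**Figure D5:**
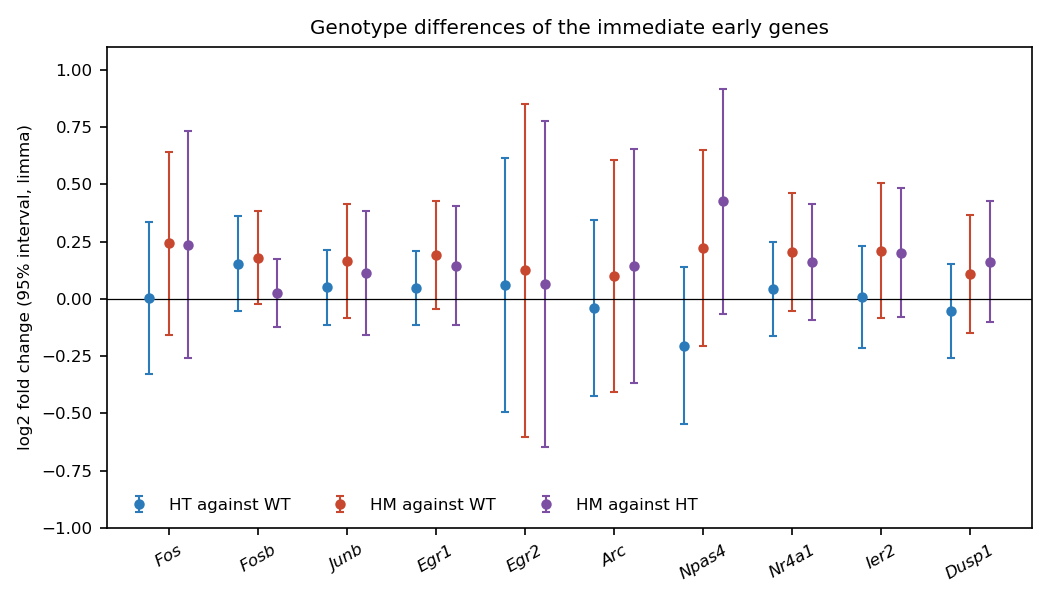
Log2 fold change of each immediate early gene (points) with its 95% interval (bars) from limma, for HT against WT (blue), HM against WT (red) and HM against HT (purple). Every interval includes 0, and the widest belong to Egr2.

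The companion lists were compared between genotypes in the same fits. Of the 29 other rapid response genes, 0 passed at an adjusted p under 0.05 in any comparison. At an unadjusted p under 0.05, Klf10 (0.30 ± 0.08), Trib1 (-0.18 ± 0.07) and Arl4d (-0.26 ± 0.07) passed in HT against WT, Fosl2 (0.18 ± 0.08) and Trib1 (-0.19 ± 0.09) in HM against WT and Klf10 (-0.21 ± 0.09) in HM against HT, where values are log2 fold changes with SE. The median log2 fold change of the list was -0.02, 0.02 and 0.02 in these comparisons. Of the 20 later activity-dependent genes, Rasd1 (-0.25 ± 0.09) in HT against WT was the only one with an unadjusted p under 0.05.

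In the pathway list of 33 genes, which again had 0 adjusted calls, 4 genes had an unadjusted p under 0.05 in HT against WT, where 6.42% of all genes did, among them Map2k2 (-0.17 ± 0.06), Mef2d (0.13 ± 0.05) and Mef2c (0.15 ± 0.06). In HM against WT these were Mef2c (0.17 ± 0.05), Mef2d (0.13 ± 0.04), Ep300 (0.20 ± 0.06) and Map2k2 (-0.12 ± 0.05), and in HM against HT Mrtfa (0.12 ± 0.05). Mef2c and Mef2d encode activity-regulated transcription factors, and Map2k2 a kinase of the MAP kinase cascade. The adjusted p of these genes was at least 0.643 (limma, BH).

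Of the glucocorticoid-responsive genes, 6 had a lower level in HT than in WT mice at an unadjusted p under 0.05, where 6.42% of all genes passed, among them Sgk1 (-0.22 ± 0.06), Mt2 (-0.17 ± 0.05), Mt1 (-0.14 ± 0.05) and Errfi1 (-0.26 ± 0.09), none with an adjusted call. In HM, Lcn2 stood at 1.23 ± 0.46 against WT and 1.46 ± 0.54 against HT, and Dio2 at 0.11 ± 0.04 against HT. Lcn2 was low, with a mean of 12.4 normalized counts over the 12 mice. It passed the filter only in the comparisons with HM, where its level was higher, and 19 genes of the list were tested in HT against WT. Its values are therefore not read as a genotype difference. Of the clock genes, Nr1d1 (0.13 ± 0.06) had an unadjusted p under 0.05 in HT against WT, Tef (-0.08 ± 0.03) and Npas2 (0.16 ± 0.07) in HM against WT and Tef (-0.08 ± 0.04) in HM against HT. Summed olfactory bulb markers ran from 3929.5 to 4097 normalized counts in WT, 3960.3 to 4172 in HT and 4282 to 5102 in HM mice, and summed blood markers from 7779.8 to 21984, 6495 to 8717 and 5859 to 29022. Most of the bulb sum was Kctd12, with a mean of 3142. Of the 7 bulb markers, 6 were higher in HM at an unadjusted p under 0.05 against WT and against HT (limma). In these comparisons 6.99% and 3.74% of all genes passed. The median log2 fold change of the bulb list was 0.77 and 0.98, with 0 adjusted calls. Tbx21, with a mean of 12.7, passed the filter only in the comparisons with HM. The part of these tissues in the members' genotype differences was not tested.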

How the data were processed

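Whole-brain RNA was sequenced by the authors in 12 mice, 4 of each genotype, which the sample titles give. Poly-A RNA with a RIN above 7 went into TruSeq libraries that were read as 2 × 100 bp on a NovaSeq. The authors quantified reads on GRCm38 with Salmon (1.1.0) and GC correction, summed them to genes with tximport and divided them by DESeq2 (1.30.1) size factors. The submitters' processing notes name R 4.1.1. The deposited table therefore holds a signal, normalized counts that are not whole numbers, and the values of a mouse summed to between 33285000 and 33748600. Raw depth is unknown: of the values under 10, between 19.7% and 57.9% per mouse lay within 0.05 of a whole multiple of the best step, where 10% would do so at random, so reads were not recovered and no count model was fitted.

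Symbols, positions and transcript lengths came from GENCODE M21, in which 19758 of 19775 identifiers were found and 17 were not. Columns named KO were read as HM. Genotypes were compared in pairs with limma 3.58.1 (R 4.3.3), applied to log2(normalized count + 1) with a mean-dependent variance prior, for genes averaging 10 or more over the 8 mice, with BH adjustment over all genes and a threshold of 0.05. Fold changes on this scale understate the change of low genes. Covariation was tested over all 12 mice by limma fits of every gene on genotype and the level of 1 member, and by two-sided exact permutation of mice within genotypes (smallest possible p 7.23e-05). Both fits were tested on simulated data. Remaining steps used Python 3.11.15, numpy 2.4.6, scipy 1.17.1, pandas 2.3.3 and matplotlib 3.10.9.

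The members and lists were chosen with earlier results of these data known. Named genes were all members, up to 4 genes of each companion list and comparison with an unadjusted p under 0.05, the 10 highest and 3 lowest genes by likeness, and Slc6a20a. Of the listed genes, Fosl1, Gabra6, Gh, Prl and Cga are not analysed here. A further gene that the naming rule took in is not reported here. The alternatives changed the pseudocount (0.1), the low-value filter (none, or 10 in each mouse) and the mice fitted together (all 12), and added blocks for the replicate number or the start of the animal number, quantile normalization, a trendless prior, rank correlation, single genotypes and the omission of each mouse in turn.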

Additional observations from a re-analysis of the deposited data

Results flagged for a closer look

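In 30 groups of 4 mice, 1 for each member and genotype, the gap between the most extreme mouse and the next, as a share of the range, was compared with Dixon's 95% critical value for 4 samples, which about 1 in 20 groups passes by chance. It was passed in 3 groups. Egr1 in WT had its highest value, 4878 normalized counts, in WT replicate 3, with a gap of 0.917 of the range. Arc in WT had its lowest value, 2842, in WT replicate 1, with a gap of 0.861 of the range. Dusp1 in HT had its lowest value, 722, in HT replicate 1, with a gap of 0.840 of the range. HM replicate 2, the highest HM mouse in all 10 genes, passed this value in none of them.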

How the results depend on the processing

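The count of 0 members called held in each genotype comparison under all alternatives, and the median within-genotype SD ran from 0.161 to 0.225 when mice were left out. The count of 8 called pairs was 7 with a pseudocount of 0.1 or quantile normalization, 1 with a prior that has no trend, 0 with the replicate block and 0 with the block for the start of the animal number, and ran from 0 to 10 when mice were left out in turn. The mean r of pairs ran from 0.442 to 0.718 when mice were left out, was 0.716 with the replicate block and was 0.154 in WT alone. The numbers do not pair the mice: deviations of mice with the same replicate number correlated at -0.066 to 0.087, and 4 of 12 mice correlated best with their own number. With the replicate block, 1 gene in place of 2 was called in HM against WT and 25 in place of 33 genes were called on the members' levels.

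Of 480 alternative values of the members' log2 fold changes, 436 kept their direction and 44 were reversed, with 0 past the threshold (smallest adjusted p 0.521, limma). With the block for the start of the animal number, values reversed to -0.14 (Egr2) and -0.0047 (Nr4a1) in HT against WT, to -0.30 (Egr2), -0.10 (Arc), -0.060 (Ier2) and -0.070 (Dusp1) in HM against WT and to -0.031 (Fosb), -0.0040 (Egr2) and -0.053 (Ier2) in HM against HT. With mice left out in turn, the genes whose direction reversed ranged in HT against WT from -0.12 to 0.18 (Fos), -0.023 to 0.11 (Egr1), -0.19 to 0.28 (Egr2), -0.22 to 0.13 (Arc), -0.042 to 0.12 (Nr4a1), -0.054 to 0.048 (Ier2) and -0.10 to 0.036 (Dusp1). In HM against WT they ranged from -0.19 to 0.40 (Egr2), -0.14 to 0.32 (Arc), -0.019 to 0.35 (Npas4) and -0.023 to 0.19 (Dusp1), and in HM against HT from -0.0033 to 0.37 (Fos), -0.0056 to 0.067 (Fosb), -0.031 to 0.19 (Junb), -0.25 to 0.34 (Egr2) and -0.094 to 0.36 (Arc). The cause was not tested. With 4 mice a genotype, true differences anywhere inside the 95% intervals remain possible.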
